A study of Homo sapiens with 12 samples.

Results

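The members are 5 genes of the alpha-globin cluster (HBZ, HBM, HBA2, HBA1 and HBQ1), 4 of the beta-globin cluster (HBE1, HBG2, HBG1 and HBD), and OR51B5, an olfactory receptor gene next to the beta cluster. They are 10 of 60671 genes in the count table and 10 of the 18626 that passed the filter on low counts, so none was lost to it. The members were picked from the measured levels of these same samples, and their differences between lines are therefore given as a description, without p-values, and the count of members past the cutoffs is support for nothing. RNA-seq was done on 12 samples, 4 replicates each of 3 lines. K562 is a human chronic myeloid leukemia line with erythroid features and is the parent of the other lines. K/VP.5 is a clone that was selected from K562 by growth in etoposide, first with breaks and later without, and is resistant to that drug, a poison of DNA topoisomerase II. K562/SSedit-2 is a clone obtained from K562 by limiting dilution after CRISPR/Cas9 and homology-directed repair had altered a splice site of TOP2A, and it keeps an unedited copy of the gene. All 3 lines grew in the same medium with serum and were harvested while dividing, whether etoposide was present then is not stated, and each derived line is 1 clone, so that clone and treatment cannot be told apart. Whether replicates were separate cultures is not stated, so tests measure the spread between these samples.

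Hemoglobin is a tetramer of paired alpha-like and beta-like chains, each holding a heme. In both clusters the genes used earliest in development lie nearest the enhancers: HBZ and HBE1 in the embryo, HBG2 and HBG1 in the fetus, HBA2 and HBA1 from the fetus onward, and HBD as a minor adult chain. HBM and HBQ1 are alpha-like genes whose products are not known parts of the common hemoglobins. Distant enhancers loop to the promoters in each cluster, and olfactory receptor genes, which encode odorant receptors of sensory neurons, flank the beta cluster on both sides. In GENCODE 44 (GRCh38), HBZ spans chr16:142728-154503, HBM chr16:153892-166764, HBA2 chr16:172876-173710, HBA1 chr16:176680-177522 and HBQ1 chr16:180459-181179, all on the plus strand. On the minus strand, HBD spans chr11:5232678-5243657, HBG1 chr11:5248269-5249857, HBG2 chr11:5253188-5505605 and HBE1 chr11:5268345-5505652, the last pair with exons far beyond the cluster.

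Library totals ranged from 28981722 to 43648830 counts, so that 3 counts equaled 0.0691 to 0.102 CPM (counts scaled to library size with TMM factors). The edited gene, TOP2A, was at 402 ± 59.1 CPM in K562, 275 ± 7.5 in the resistant clone and 192 ± 16 in the edited clone (mean ± SD, n = 4). Of 14 erythroid marker genes, 13 averaged at least 1 CPM in each line, with a summed level of 4032 to 4857 CPM in K562, 4089 to 4491 in the resistant clone and 5483 to 5695 in the edited clone. Most of that sum was TFRC, the transferrin receptor, in K562 and the edited clone, and without it the range was 1642 to 1810 CPM in K562, 2352 to 2565 in the resistant clone and 2059 to 2394 in the edited clone. Megakaryocyte markers summed to at most 4.69 CPM in any library, myeloid markers to at most 20.2 and lymphoid markers to at most 55.4, the last mostly from CD3D, which averaged 32.8 CPM in K562, 8.34 in the resistant clone and 43.1 in the edited clone. GP1BB, GP9 and PF4 had at most 3 counts in every library, as did ELANE, MS4A1 and CD2. K562 replicate 1 stood apart: its counts differed from those of the other K562 replicates by a chi-square per degree of freedom of 61.3 to 65.1, against 6.60 to 20.3 among those 3, and it was the highest K562 library for 7 of the 9 globin members.

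The 250 bases before the start of HBM and of HBD, the members held in the RefSeq promoter table used here (GRCh38.p14), are shown because both genes were higher in the edited clone than in K562. The HBM stretch lies at chr16:165728-165977 (plus strand) and that of HBD at chr11:5234484-5234733 (minus strand). Each stretch precedes the RefSeq start and lies inside the longer GENCODE span of its gene. Capitals mark short motifs of erythroid promoters that were found on either strand. CACCC is the core bound by KLF-type factors, and in the HBM promoter its reverse complement is printed. The sequence GATAA is bound by GATA factors, and in the HBD promoter it is likewise on the other strand. CCAAT gives the letters of the CCAAT box, though a match need not be a working box. The TATA box was searched with the letters TATAA and with the variant ATAAA, which was found in HBD.
HBM: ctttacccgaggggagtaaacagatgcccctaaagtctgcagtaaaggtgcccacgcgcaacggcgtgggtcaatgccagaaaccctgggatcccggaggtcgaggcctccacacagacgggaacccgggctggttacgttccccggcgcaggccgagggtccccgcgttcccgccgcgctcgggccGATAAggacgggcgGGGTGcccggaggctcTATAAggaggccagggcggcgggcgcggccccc
HBD: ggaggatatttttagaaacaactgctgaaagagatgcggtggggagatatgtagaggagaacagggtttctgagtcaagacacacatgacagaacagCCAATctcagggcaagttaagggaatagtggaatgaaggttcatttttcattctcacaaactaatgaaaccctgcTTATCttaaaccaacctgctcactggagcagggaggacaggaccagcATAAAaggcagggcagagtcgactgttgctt
In HBM, GATAA stood 63 to 59 bases, CACCC (reverse) 49 to 45 bases and TATAA 33 to 29 bases before the start. In HBD, CCAAT stood 153 to 149 bases, GATAA (reverse) 78 to 74 bases and ATAAA 31 to 27 bases before it. Nearer the start than that GATAA, HBD reads ccaac, which the search did not match. Such short words are common. Among 35116 promoters of this length the KLF core was found in 54.7%, the CCAAT box in 32.0%, the GATA sequence in 20.4%, the TATA box in 18.9% and its variant, which can overlap it, in 32.7%.

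Per kilobase of exon, HBG2 was the highest member in K562 at 266 ± 37.2 CPM per kb, followed by HBA1 at 218 ± 50.0, and these means differed by less than the SD of HBA1. HBZ (119 ± 30.6), HBA2 (106 ± 21.5) and HBG1 (89.97 ± 2.81 CPM per kb) came next, with means closer than the SD of HBZ, although HBZ was above HBA2 in each of the 4 K562 libraries. HBM (38.9 ± 4.31) and HBQ1 (37.9 ± 11.4) formed a lower pair, and OR51B5 stood at 19.5 ± 4.04 CPM per kb. HBD at 0.867 ± 0.156 and HBE1 at 0.503 ± 0.0584 CPM per kb were lowest, but 865 of the 961 HBE1 exon bases are shared with other counted genes, so its level and its place beside HBD can depend on how reads were assigned. The order depends on the length used: divided by the longest transcript in place of all exon bases, K562 had HBM at 59.9 and OR51B5 at 56.1 CPM per kb, both above HBQ1 at 37.9. In K/VP.5, per kb of exon, the order was kept at the top, while HBG1 at 149 ± 7.44 CPM per kb stood above HBZ at 107 ± 20.3 and HBA2 at 97.2 ± 15, and OR51B5 was lowest at 0.0316 ± 0.026. By the longest transcript, HBZ at 156 was instead above HBG1 at 149 CPM per kb in that line. Both lengths of HBG1, 1467 and 1464 bases, far exceed the 587 bases of its transcript HBG1-201, which lowers its place. For HBG2 they are 841 and 694 against 586 for HBG2-201. Not divided by length, HBG1 averaged 132 CPM in K562, near HBZ at 138 and above HBA2 at 87.4. In K/VP.5 it averaged 218 CPM, above HBA1 at 169. Per kb of exon in K562/SSedit-2, HBG2 reached 444 ± 18.9, HBA1 338 ± 59.4 and HBZ 179 ± 57.4 CPM per kb. All 9 globin members together took 0.0753 to 0.0952% of the counts in tested genes in K562, 0.0816 to 0.0976% in the resistant clone and 0.111 to 0.146% in the edited clone.

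**Figure D1:**
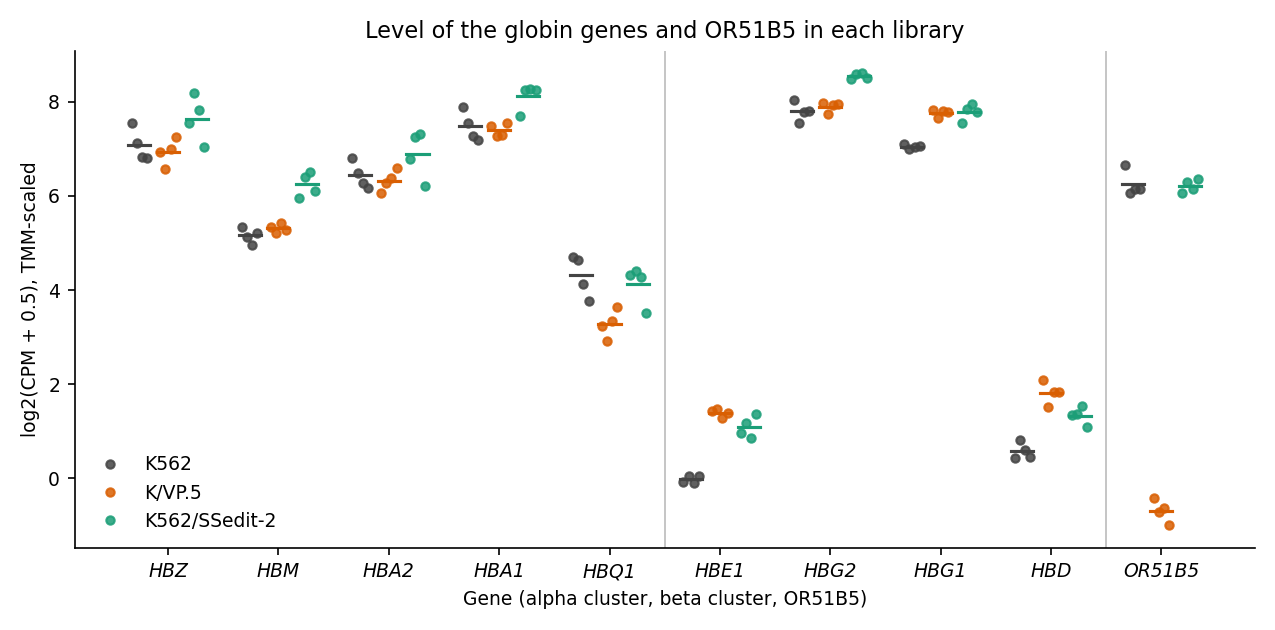
Level of each member in each library, as log2(CPM + 0.5) with TMM scaling (y axis) by gene (x axis); points are replicates 1 to 4 from left to right within each line and bars are line means. OR51B5 is near 6 in K562 and K562/SSedit-2 and below 0 in K/VP.5, while HBE1 (counted apart from its read-through gene) and HBD sit low in K562 and higher in both derived lines.

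Across the alpha cluster, K562/SSedit-2 tended to lie above K562 and K/VP.5 close to it, and the spread between replicates was wide. HBZ, the embryonic zeta chain, ranged from 112 to 188 CPM in K562, from 94.9 to 152 in the resistant clone and from 131 to 289 in the edited clone, and all 3 ranges overlapped. Its log2 fold change against K562 was -0.15 ± 0.21 (SE) in the resistant clone and 0.59 ± 0.21 in the edited clone. HBA2 and HBA1, which encode the same alpha chain, gave log2 fold changes in K/VP.5 of -0.12 ± 0.20 and -0.11 ± 0.15. In K562/SSedit-2 they were 0.50 ± 0.20 for HBA2 and 0.63 ± 0.15 for HBA1. For each of the 3 genes the K562/SSedit-2 replicates overlapped those of K562. Without K562 replicate 1 the values for HBZ, HBA2 and HBA1 became 0.01, -0.0046 and 0.03 in the resistant clone and 0.78, 0.64 and 0.79 in the edited clone.

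HBA1 and HBA2 did not always move together within a line. HBA1 in the edited clone was at 208, 304, 311 and 306 CPM in replicates 1 to 4, and HBA2 at 109, 151, 159 and 73.8 CPM. Replicate 4 was thus lowest for HBA2 but not for HBA1, whereas replicate 1 was lowest for HBA1. Per kb, HBA2 made up 32.1 to 33.6% of the pair in K562, 27.3 to 34.8% in the resistant clone and 19.6 to 34.6% in the edited clone. The low end came from 1 library in each derived line, K/VP.5 replicate 1 and K562/SSedit-2 replicate 4, without which the lowest shares were 33.39% and 33.4%. Of the 150-base windows of the HBA1 transcript, 77.3% also occur in HBA2, and 77.5% in the other direction, so how reads were divided within the pair is uncertain. With the pair summed, the log2 fold change was -0.11 for K/VP.5 and 0.59 for the edited clone against K562.

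HBM was the alpha-cluster member that differed most in the edited clone. It stood at 40.03, 34.4, 30.7 and 36.8 CPM in K562, at 39.8, 36.7, 42.5 and 38.0 in the resistant clone, and at 61.6, 84.1, 90.8 and 68.8 in the edited clone. Every K562/SSedit-2 replicate was above every replicate of both other lines, which overlapped each other. The log2 fold change was 1.11 ± 0.11 against K562 and 0.96 ± 0.11 against K/VP.5, a fold of 2.15 and 1.95. In the annotation, 45.0% of the HBM exon bases are shared with HBZ or the pseudogene HBZP1, so its count depends on how such reads were assigned.

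HBQ1, the theta gene at the far end of the cluster, was the alpha-cluster member that stood lower in K/VP.5. Its levels were 25.6, 24.4, 16.9 and 13.1 CPM in K562, 8.97, 7.02, 9.61 and 11.9 in the resistant clone, and 19.3, 20.6, 18.8 and 10.9 in the edited clone. Every HBQ1 value of K/VP.5 lay under the lowest of K562 by a narrow gap, and replicate 4 of K562/SSedit-2 fell inside the K/VP.5 range. Against K562, the log2 fold change of HBQ1 in K/VP.5 was -1.10 ± 0.22, a level of 0.467 of the parent, and in the edited clone it was -0.20 ± 0.22. Without K562 replicate 1 or without K/VP.5 replicate 2 the first value became -0.98, just short of a 2-fold difference.

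In the beta cluster, the genes of lowest level differed most. HBE1, the embryonic epsilon gene, had 16 to 23 counts in the K562 libraries, 62 to 88 in the resistant clone and 42 to 70 in the edited clone. This corresponded to 0.440, 0.529, 0.431 and 0.535 CPM in K562, 2.20, 2.26, 1.94 and 2.10 in the resistant clone, and 1.45, 1.74, 1.31 and 2.09 in the edited clone. All replicates of both derived lines were above all of K562, and the derived lines overlapped. The log2 fold change was 2.12 ± 0.19 in the resistant clone and 1.76 ± 0.20 in the edited clone, a fold of 4.36 and 3.38. Only 96 of the 961 HBE1 exon bases belong to no other counted gene. ENSG00000239920, a read-through gene over HBE1 and the olfactory receptor genes, shares 781 of them, and its own level went the other way in K/VP.5, at 2.55 ± 0.878 CPM in K562, 0.296 ± 0.115 in the resistant clone and 2.70 ± 0.345 in the edited clone. With the counts of both summed, the levels were 3.04 ± 0.870, 2.42 ± 0.178 and 4.35 ± 0.458 CPM in that order, with K/VP.5 overlapping K562. The log2 fold change of the sum was -0.32 ± 0.18 in the resistant clone and 0.52 ± 0.17 in the edited clone. Of the 5265 exon bases of the read-through gene, 781 overlap HBE1, so the sum is not a level of HBE1 alone, and gene counts do not show where its reads lie.

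HBD, the delta chain of the minor adult hemoglobin, had 31 to 54 counts in K562, 88 to 151 in the resistant clone and 54 to 78 in the edited clone. Its levels were 0.852, 1.24, 1.02 and 0.875 CPM in K562, 3.77, 2.34, 3.04 and 3.08 in the resistant clone, and 2.04, 2.09, 2.38 and 1.61 in the edited clone. Both derived lines lay wholly above K562, and K/VP.5 overlapped K562/SSedit-2 through its replicate 2. The log2 fold change was 1.61 ± 0.19 in the resistant clone and 1.02 ± 0.20 in the edited clone. The second lies at the 2-fold boundary, and it was 0.95 without K562 replicate 1, 0.96 without K562 replicate 4 and 0.94 without K562/SSedit-2 replicate 3.

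The gamma genes, which encode the fetal beta-like chains and are the main beta-like genes of K562 here, gave different patterns. HBG1 stood at 137, 127, 132 and 132 CPM in K562, at 227, 202, 222 and 221 in the resistant clone, and at 187, 229, 248 and 221 in the edited clone. HBG2 stood at 264, 187, 221 and 222 CPM in K562, at 252, 212, 244 and 246 in the resistant clone, and at 356, 385, 389 and 365 in the edited clone. HBG1 was thus higher than in K562 in every replicate of both derived lines, and HBG2 only in the edited clone, with K/VP.5 inside the K562 range. In log2 units HBG1 differed from K562 by 0.72 ± 0.08 in the resistant clone and 0.75 ± 0.08 in the edited clone, and HBG2 by 0.09 ± 0.09 and 0.74 ± 0.09. None of these reached 2-fold. Without K562 replicate 1 the HBG2 values were 0.16 and 0.83.

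The make-up of the gamma pair therefore set K/VP.5 apart. Per kb of exon, HBG2 made up 74.5% ± 2.06 of the pair in K562, 65.6% ± 0.604 in the resistant clone and 74.7% ± 1.51 in the edited clone (SD, n = 4). The highest K/VP.5 replicate, at 65.99%, was below the lowest of K562, at 72.0%, and of K562/SSedit-2, at 73.2%. Dividing by 1467 exon bases for HBG1 and 841 for HBG2 raises the HBG2 share. Not divided by length, it was 62.7% in K562, 52.2% in the resistant clone and 62.9% in the edited clone. Of the 150-base windows of the gamma transcripts, 37.2% of HBG1 and 37.3% of HBG2 also occur in the partner, and a read-through gene over both (ENSG00000284931) shares 431 of the 841 exon bases of HBG2 and 218 of the 1467 of HBG1. That read-through gene averaged 59.8 ± 5.69 CPM in K562, 71.8 ± 6.15 in the resistant clone and 102 ± 11.5 in the edited clone. With HBG1 and HBG2 summed, K/VP.5 was 0.36 above K562 in log2 units, and with the read-through gene added it was 0.35.

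By contrast, HBZ kept a like share of alpha-cluster output in all 3 lines. It made up 22.8% ± 0.863 per kb in K562, 22.8% ± 2.05 in the resistant clone and 22.6% ± 4.33 in the edited clone. HBA1 held 41.9% ± 0.360, 43.4% ± 2.69 and 43.6% ± 7.77 in the same order. HBQ1 held 7.24% ± 1.11 in K562, 3.77% ± 0.416 in the resistant clone and 4.24% ± 1.07 in the edited clone, while HBM was at 7.67% ± 1.33, 9.28% ± 1.03 and 10.7% ± 0.645. Summed, the alpha-cluster members were at 463 ± 103 CPM in K562, 422 ± 47.8 in the resistant clone and 707 ± 140 in the edited clone. The beta-cluster globin members summed to 357 ± 35.2, 462 ± 29.1 and 599 ± 40.8 CPM. In bulk samples fewer expressing cells and less RNA per cell cannot be told apart.

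**Figure D2:**
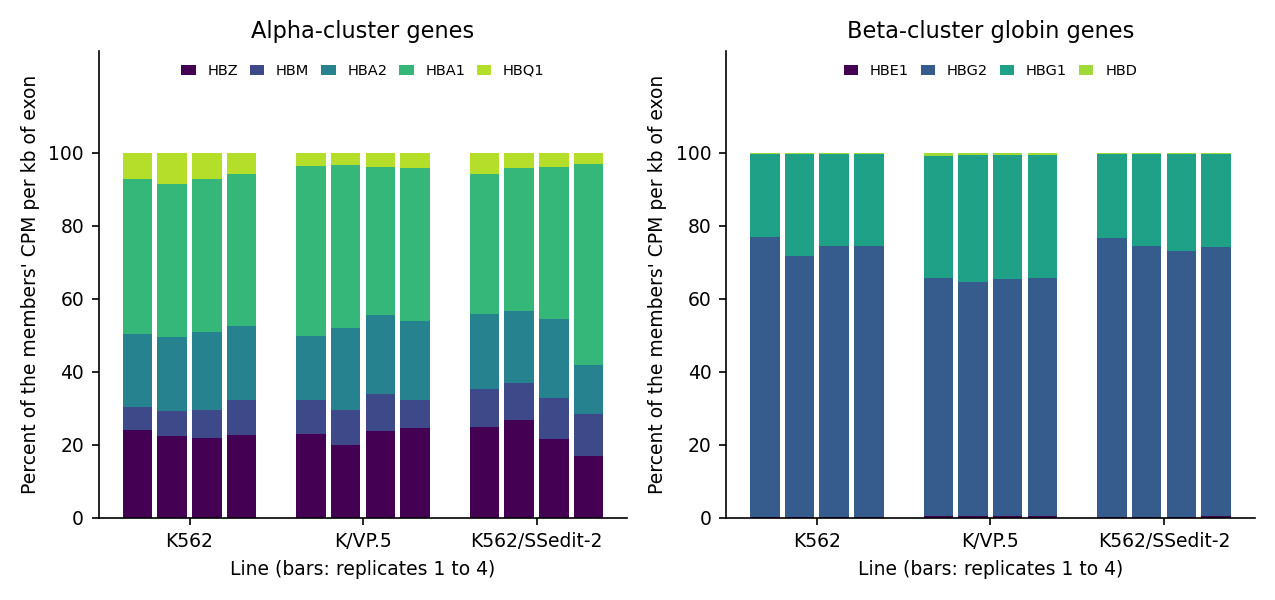
Share of each member in the summed CPM per kb of exon (y axis, percent) of the alpha-cluster members (left) and of the beta-cluster globin members (right), 1 bar per replicate in each line. HBG2 holds about 65% of the right-hand bars in K/VP.5 and about 74% in the other lines, and HBE1 and HBD are too low to be seen clearly.

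OR51B5 gave the largest difference of all members. It had 3678, 2901, 2623 and 2893 counts in K562, 10, 4, 5 and 0 in the resistant clone, and 2392, 2895, 2257 and 2726 in the edited clone. In CPM, K562 was at 101, 66.8, 70.6 and 70.3, K562/SSedit-2 at 66.7, 77.6, 70.6 and 81.3, and the highest K/VP.5 library at 0.250. The parent and the edited clone overlapped, with a log2 fold change of -0.06 ± 0.14, or 0.10 without K562 replicate 1. Summed over libraries, the count rate in K562 was 570 times that in K/VP.5 (95% exact interval 365 to 948), and in the edited clone it was 552 times as high (353 to 918), where the intervals cover counting error only. The fitted log2 fold changes of -9.14 ± 0.26 and 9.08 ± 0.26 depend on the prior count. They were -9.72 and 9.68 without K/VP.5 replicate 1, and -8.79 and 8.75 without K/VP.5 replicate 4.

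At cutoffs of at least 2-fold and a 10% false discovery rate by edgeR's quasi-likelihood test, 4 of the 10 members passed in K/VP.5 against K562. HBE1 and HBD were higher and HBQ1 and OR51B5 lower, where 15.6% of all tested genes passed, 8.98% higher and 6.66% lower. In K562/SSedit-2 against K562, HBM, HBE1 and HBD passed, all higher, where 2.06% of genes passed, 0.805% higher and 1.26% lower. In K562/SSedit-2 against K/VP.5, OR51B5 was the 1 member that passed, as higher, where 15.8% passed, 6.2% higher and 9.62% lower. That count became 2 or 3 when 1 library was left out: HBM was added without K/VP.5 replicate 3 or K562/SSedit-2 replicate 1, HBQ1 without K/VP.5 replicate 4, and both without K562/SSedit-2 replicate 4. The sum of HBE1 and its read-through gene did not pass in either derived line against K562. Since the members were chosen with these values known, nothing is read from the counts, and the 3 comparisons share samples. The median log2 fold change of the 9 globin members was 0.09 in K/VP.5 against K562 and 0.74 in the edited clone against K562, beside 0.0067 and -0.013 over all genes tested.

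**Figure D3:**
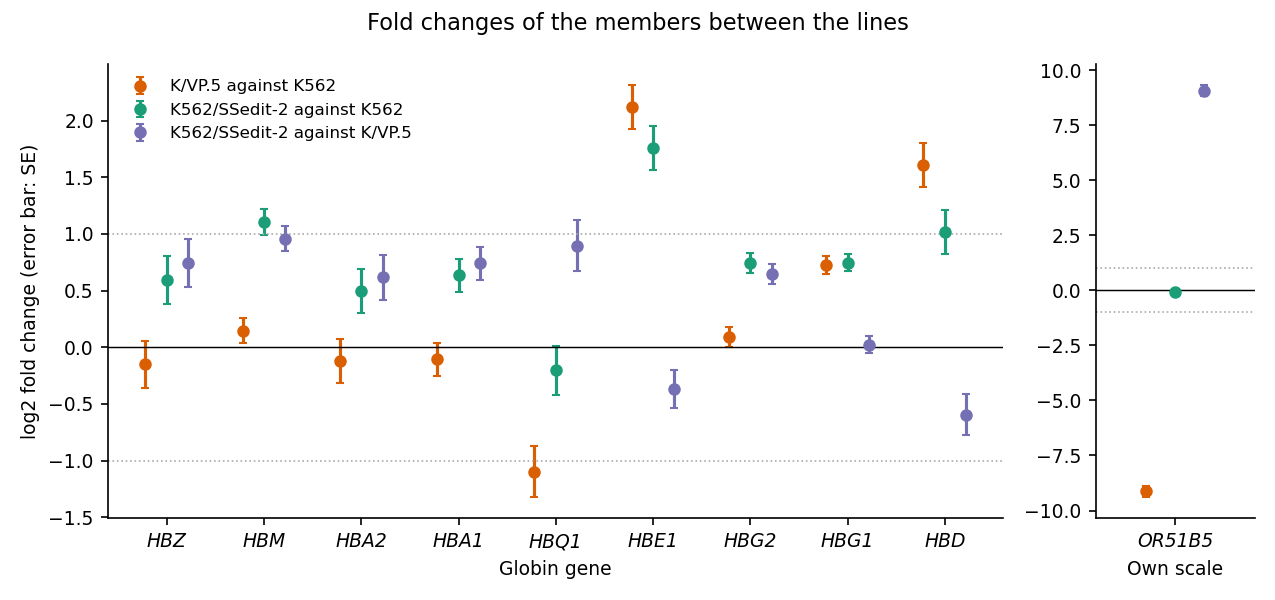
Log2 fold change of each member with its SE (y axis) in the 3 comparisons, which share samples; dotted lines mark 2-fold, and OR51B5 has its own scale at right. HBE1 (counted apart from its read-through gene) and HBD lie above 1 in both derived lines, HBM in K562/SSedit-2 alone, and HBQ1 below -1 in K/VP.5 alone.

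The annotated span of OR51B5, chr11:5303444-5505652 on the minus strand, covers many other olfactory receptor genes, and the annotated genes HBE1 and HBG2 start at or beside the same place. These neighbours are not members. Of the 14 listed genes that lie inside the span, 11 were tested, a grouping made after their values were seen. All 11 were lower past the cutoffs in K/VP.5 against K562, with log2 fold changes from -8.93 to -5.87, and all 11 were higher in the edited clone than in K/VP.5. With at most 3 counts in every K/VP.5 library, these genes passed the filter on low counts only through the other lines, so those tested had to be lower in K/VP.5 and nothing is read from the count of 11. In K562/SSedit-2 against K562 edgeR's test put 0 of the 11 past the cutoffs, as did DESeq2 and limma voom, with 3 at an unadjusted p under 0.05 and a median log2 fold change of 0.33.

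Among these neighbours, OR51I2 had 808 counts in K562, 1 in the resistant clone and 1109 in the edited clone, summed over 4 libraries each. Its log2 fold change in K/VP.5 against K562 was -8.93 ± 0.41. OR52D1, near the annotated start of OR51B5, had 840, 2 and 1068 counts, and OR51B2, near its other end, had 224, 3 and 174. OR51K1P had 384, 1 and 405 counts, OR51Q1 238, 1 and 279, and OR51M1 466, 6 and 489. OR51B4, just past the annotated 3′ end of OR51B5 at chr11:5301014-5301946, had 1958, 5 and 1652 counts (log2 fold change -8.34 ± 0.37). With at most 2 counts in every K/VP.5 library, OR51B4 also passed the filter only through the other lines, so nothing is read from its call. For OR51B6, OR51I1 and the pseudogenes OR51J1, OR51A10P and OR51B8P, K/VP.5 had 0 counts. Taking 3 counts over the group as the floor, the lower bounds for K562 over K/VP.5 were 33.1-fold, 43.6-fold, 27.8-fold, 47.5-fold and 27.8-fold. All 11 had at most 3 counts in every K/VP.5 library, 14 in sum, against 3562 in K562 and 4216 in the edited clone.

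Of those 11, 6 lie on the plus strand and 5 on the minus strand, which is that of OR51B5. The strand setting of the count is not stated, so reads of a gene and of a transcript passing over it on the other strand cannot be told apart. ENSG00000239920, which shares 127 exon bases with OR51B5, was also lower in K/VP.5, at 0.296 ± 0.115 CPM against 2.55 ± 0.878 (log2 fold change -3.06 ± 0.29, adjusted p = 2.57e-07).

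Past OR51B4 on the globin side and past the annotated start of OR51B5 on the other, the tested genes did not show a difference of that size. On the globin side, the pseudogene HBBP1 averaged 1.95 ± 0.232 CPM in K562, 5.19 ± 0.579 in the resistant clone and 5.76 ± 0.535 in the edited clone. It rose past the cutoffs in both derived lines (log2 fold change 1.41 ± 0.13, adjusted p = 2.54e-07, and 1.56 ± 0.13, adjusted p = 1.35e-06). BGLT3, a noncoding RNA between the gamma genes and HBBP1, had log2 fold changes of 0.72 ± 0.17 (adjusted p = 0.00232) and 0.98 ± 0.17 (adjusted p = 0.00148), short of 2-fold. Beyond the globin genes, OR52A1 had 8 counts in K562, 50 in the resistant clone and 19 in the edited clone. Its log2 fold change in K/VP.5 against K562 was 2.71 ± 0.55. OR52A1 passed the filter on low counts only through K/VP.5, so it had to be higher there and nothing is read from its call. On the other side, TRIM6, which encodes a ubiquitin ligase, was lower in K/VP.5 (-1.71 ± 0.25, adjusted p = 2.56e-05), and TRIM5, a restriction factor farther out, had a log2 fold change of 0.01 ± 0.09. Of 19 beta-side neighbours tested of 96 listed within 500 kb, 14 were lower and 2 higher in K/VP.5 against K562, the lower ones including the 11 inside the span, and 1 was higher in the edited clone against K562. The shares over all tested genes were 6.66% lower and 8.98% higher in K/VP.5, and 0.805% higher in the edited clone. OR52A5, on the globin side, had 3 counts in K562, 63 in the resistant clone and 2 in the edited clone and was not kept by the filter. It was higher in K/VP.5 against K562 with no filter (4.27), and also when K/VP.5 replicate 4 or any 1 library of the other lines was left out (3.90 to 5.15).

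**Figure D4:**
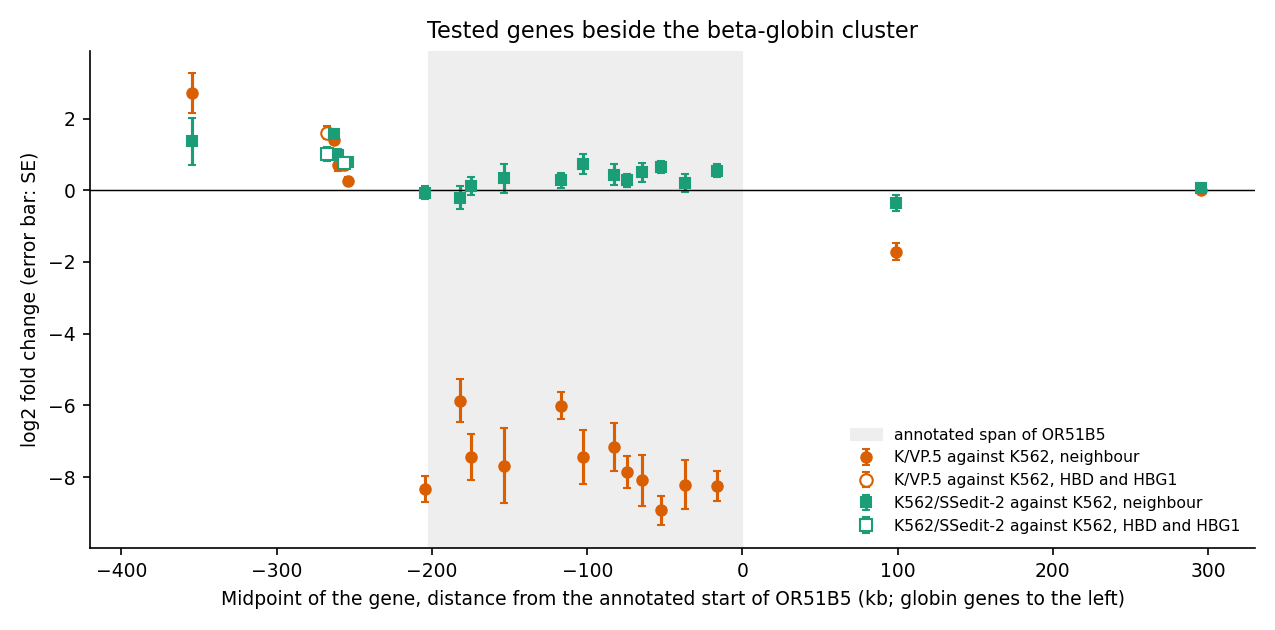
Log2 fold change against K562 with its SE (y axis) of the tested genes beside the beta cluster, by the distance of the gene's midpoint from the annotated start of OR51B5 in kb (x axis); the read-through gene ENSG00000239920 is left out, and open symbols are the members HBD and HBG1. Inside the shaded span of OR51B5 all K/VP.5 values lie from -8.93 to -5.87 and the K562/SSedit-2 values from -0.20 to 0.74.

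Around the alpha cluster, 38 of 56 listed neighbours were tested. In K/VP.5 against K562, 3 were higher and 5 lower past the cutoffs, with a median log2 fold change of -0.45. All tested genes were higher in 8.98% and lower in 6.66% of cases there, and 2.06% passed between the edited clone and K562. ARHGDIG (2.73 ± 0.32, adjusted p = 2.75e-06), PDIA2 and PRR35 rose, and NME4 (-1.19 ± 0.08, adjusted p = 3.59e-09), METTL26, WFIKKN1, DECR2 and NPRL3 fell. NPRL3, whose introns hold the main alpha-globin enhancers, was at 76.8 ± 17.6 CPM in K562 and 38.3 ± 2.74 in K/VP.5 (-1.0 ± 0.14, adjusted p = 1.61e-05), a call at the 2-fold boundary that was kept under 12 of 22 alternatives. Without K562 replicate 1 the NPRL3 value was -0.86. It was -0.97 without K/VP.5 replicate 2, -0.99 without K/VP.5 replicate 3, and just short of 2-fold without K562/SSedit-2 replicate 2, 3 or 4. Between the edited clone and K562, edgeR's test put 0 of the 38 past the cutoffs, DESeq2 1 and limma voom 0, with 18 at an unadjusted p under 0.05 and a median of -0.30. CAPN15, the neighbour of highest mean level over the 12 libraries, was at 232 ± 18.5 CPM in K562, 161 ± 20.1 in the resistant clone and 187 ± 17.7 in the edited clone, within 2-fold. Against K/VP.5, ARHGDIG, PDIA2 and PRR35 were lower in the edited clone. METTL26 was higher there by 1.03 on the log2 scale, but the call was lost without K/VP.5 replicate 2 (0.98), K562/SSedit-2 replicate 1 (0.98) or replicate 2 (0.98), and with upper-quartile scaling (an alternative library scaling, 0.996).

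Regulators of the globin genes, partners of the haemoglobin chains and other globins were read from 6 lists of 63 genes, of which 58 were tested. In K/VP.5 against K562, 5 were higher and 1 lower past the cutoffs, with a median log2 fold change of -0.06. Over all tested genes 8.98% were higher and 6.66% lower in that comparison. LIN28A was the 1 gene past the cutoffs between the edited clone and K562, where the median was 0.0037 and 2.06% of all tested genes passed.

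Of 10 repressors of the fetal globin genes, BCL11A and SOX6 passed the cutoffs in K/VP.5, in opposite directions. BCL11A, the main known silencer of HBG1 and HBG2, had 1, 3, 6 and 2 counts in K562, 67, 85, 70 and 48 in the resistant clone, and 4, 1, 1 and 4 in the edited clone. Every K/VP.5 library was above every other, at 1.90 ± 0.301 CPM. The count rate was 25.1 times that of K562 (95% exact interval 14.1 to 49.2, for counting error only). The fitted log2 fold change of BCL11A was 4.58 ± 0.36. With at most 6 counts in every other library, BCL11A passed the filter on low counts only through K/VP.5. It therefore had to be higher there, and nothing is read from its call. SOX6, which acts with BCL11A at the beta cluster and also silences the epsilon gene, was at 9.81 ± 0.885 CPM in K562 and 3.26 ± 0.239 in K/VP.5 (-1.59 ± 0.12, adjusted p = 1.33e-08), and 10.7 ± 1.32 in the edited clone. MYB, the highest of the list over the 12 libraries, was at 241 ± 29.6, 154 ± 7.82 and 207 ± 13.5 CPM in the parent, resistant and edited lines, short of 2-fold. The median of the list was -0.03 in both derived lines against K562.

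Of 14 activators tested of 15 listed, MAFK, a partner of NF-E2 at the globin enhancers, passed in K/VP.5, at 49.1 ± 4.47 against 22.6 ± 4.07 CPM (1.12 ± 0.13, adjusted p = 2.1e-06) and did not without K562 replicate 1 (0.97). NFE2, the blood cell subunit of NF-E2, was at 360 ± 19.6 CPM in K562 and 191 ± 8.70 in K/VP.5, with no overlap but short of 2-fold (-0.91 ± 0.06, adjusted p = 2.94e-09), and at 374 ± 13.5 in the edited clone. GATA2 was the highest of the list by the mean over the 12 libraries but not within the parent or the edited clone, at 355 ± 9.64, 432 ± 32.6 and 325 ± 20.1 CPM in the parent, resistant and edited lines. KLF1, a leading erythroid activator, was at 209.9 ± 17.5, 201 ± 24.2 and 211 ± 23.2 CPM, and the 3 ranges overlapped. LDB1, which holds the enhancer loops, was at 332 ± 14.4 CPM in K562 and 183 ± 7.46 in K/VP.5, below all K562 replicates but short of 2-fold (-0.86 ± 0.06, adjusted p = 1.09e-08). The median of the list was -0.18 in the resistant clone and 0.01 in the edited clone. Of 19 corepressors, EHMT1, a histone methyltransferase, rose from 45.3 ± 1.65 to 113 ± 6.05 CPM in K/VP.5 (1.32 ± 0.06, adjusted p = 3.88e-11). GATAD2A, the highest of that list over the 12 libraries and at 395 ± 33.6 CPM in K562, had a log2 fold change of -0.0075 ± 0.063.

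Of 6 genes of the fetal programme, LIN28A, an RNA-binding protein that blocks let-7 miRNAs and raises gamma-globin in erythroid cells, passed in both derived lines in opposite directions. It had 11, 27, 33 and 32 counts in K562, 1490, 1291, 1192 and 1077 in the resistant clone, and 7, 6, 7 and 10 in the edited clone. The log2 fold change was 5.77 ± 0.18 in K/VP.5 (adjusted p = 2.18e-13) and -1.57 ± 0.30 in the edited clone (adjusted p = 0.00383), each with no overlap with K562. IGF2BP1, the highest of the list, was at 784 ± 30.2, 883 ± 9.76 and 554 ± 28.3 CPM in the parent, resistant and edited lines, within 2-fold. Of 8 haemoglobin partners tested of 9 listed, AHSP, the chaperone of free alpha chains, rose in K/VP.5 from 0.469 ± 0.106 to 1.595 ± 0.171 CPM (1.75 ± 0.23, adjusted p = 9.9e-06). BLVRA, which reduces biliverdin, was higher in the edited clone (55.6 ± 0.85 CPM) than in K/VP.5 (26.4 ± 1.73, a log2 fold change of 1.07 ± 0.09, adjusted p = 8.77e-08). Against K562, BLVRA in K/VP.5 was short of 2-fold at -0.95 ± 0.09, and passed without K562 replicate 1 (-1.07). PRDX2, the most abundant partner at 238 ± 41.5 CPM in K562, had log2 fold changes of -0.05 ± 0.10 and 0.09 ± 0.10. CYGB, the 1 other globin tested of 4 listed, averaged 0.296 ± 0.171 CPM in K562, with log2 fold changes of -0.50 ± 0.47 and -0.47 ± 0.47, and a difference was not detectable at this depth.

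**Figure D5:**
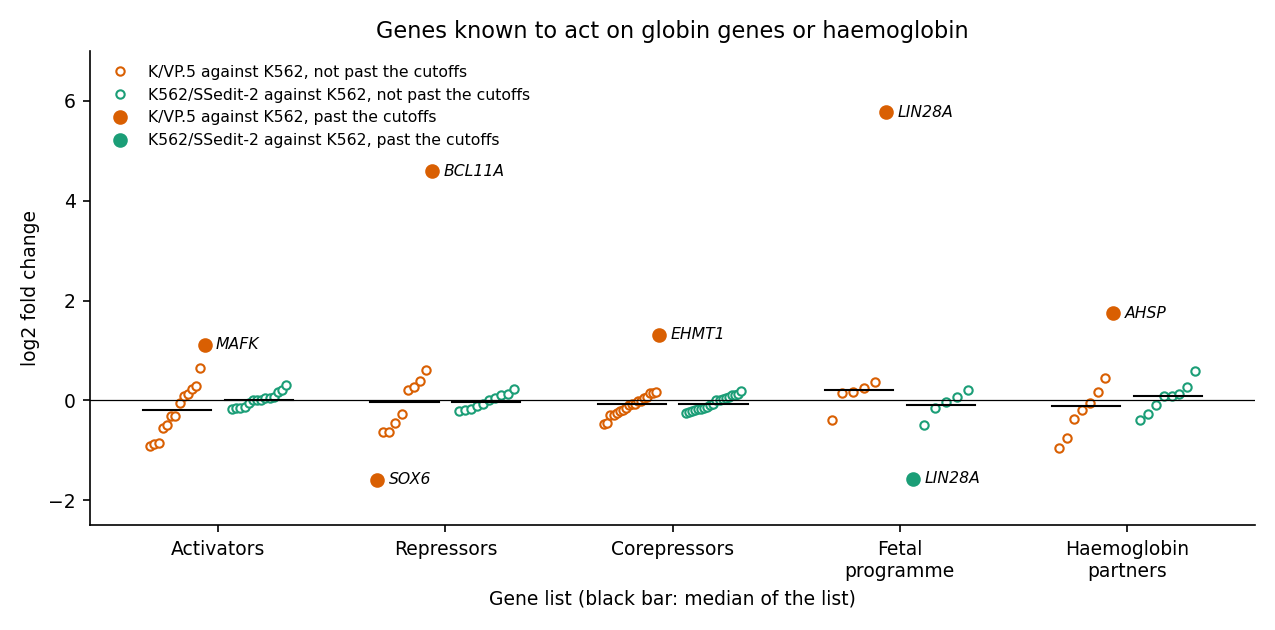
Log2 fold change against K562 (y axis) of each tested gene of 5 lists (x axis) in K/VP.5 and K562/SSedit-2; filled points passed the cutoffs and black bars are list medians. BCL11A at 4.58 and LIN28A at 5.77 stand far above their lists in K/VP.5, and the list medians lie between -0.18 and 0.21.

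Among the erythroid markers, 5 of 13 tested were higher and 1 lower past the cutoffs in the resistant clone, and 2 were higher in the edited clone, with list medians of 0.21 and 0.45. Against K562, 8.98% of all tested genes were higher and 6.66% lower in the resistant clone. In the edited clone 0.805% were higher and 1.26% lower, and these shares apply to the other marker lists as well. GYPB and GYPE, which encode red cell surface proteins, had log2 fold changes of 5.16 ± 0.24 and 4.77 ± 0.15 in K/VP.5 (adjusted p = 3.52e-11 and 2.18e-13), but have near-identical copies, so their counts can be mixed. SLC4A1, the band 3 anion exchanger, fell in K/VP.5 from 20.7 ± 2.73 to 2.60 ± 0.325 CPM (-2.99 ± 0.15, adjusted p = 7.76e-11) and rose in the edited clone to 49.1 ± 8.87 CPM (1.25 ± 0.13, adjusted p = 8.8e-06). ALAS2, the erythroid enzyme that starts heme synthesis, rose in K/VP.5 (1.53 ± 0.12, adjusted p = 3.33e-08). TFRC was the marker of highest level, at 2653 CPM over the 12 libraries. Of 7 myeloid markers tested, 2 were higher (CEBPA and ITGAM) and 3 lower (SPI1, LYZ and AZU1) in K/VP.5, with a list median of -0.66, and edgeR's test put 0 past the cutoffs in the edited clone, with 4 at an unadjusted p under 0.05. In the edited clone all 7 had log2 fold changes below 0, with a median of -0.59, and AZU1 (-0.89 ± 0.24, adjusted p = 0.0307) and SPI1 (-0.59 ± 0.21, adjusted p = 0.0947) were lower at the 10% false discovery rate but short of 2-fold. SPI1, the highest of that list by the mean over the 12 libraries, averaged 9.12 CPM in K562 and 1.00 in K/VP.5, where CEBPA (1.51) and ITGAM (2.21) were above it. Of 3 lymphoid markers tested CD3D was lower in K/VP.5, and of 3 megakaryocyte markers, GP1BA being the highest at 2.21 CPM, edgeR's test called 0 in either clone, with 0 in K/VP.5 and 1 in the edited clone at an unadjusted p under 0.05. Whether the marker levels play a part in the globin differences was not tested.

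The genes whose pattern over the 12 samples was most like that of the members were ranked by the root mean square difference of centred log2(CPM + 0.5), among 8874 other genes with a mean of at least 10 CPM. Among the closest to the summed alpha-cluster members were the histone genes H4C3 (0.21) and H4C1 (0.22), followed by RN7SKP71 and RN7SKP203 (both 0.23), copies of a small RNA whose reads cannot be assigned with certainty. Closest to the summed beta-cluster globin members were LAMTOR5 (0.12), KEL (0.13), SLC25A37 (0.13), H4C14 (0.14) and H4C15 (0.14). KEL encodes a red cell blood group antigen and SLC25A37 the mitochondrial iron importer mitoferrin. Closest to OR51B5 were PTPN7 (0.30), MEF2C (0.35), ARHGAP4 (0.43), H2BC9 (0.45) and GABRE (0.45), each far lower in K/VP.5 than in the other lines. PTPN7, a phosphatase of blood cells, averaged 316 ± 62.8 CPM in K562, 2.85 ± 0.548 in the resistant clone and 306 ± 42.1 in the edited clone. MEF2C, a transcription factor, averaged 45.97 ± 9.00, 0.10 ± 0.0718 and 56.5 ± 6.88 CPM in the same order.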

How the data were processed

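The 12 RNA-seq samples comprised K562 and its derived lines K/VP.5 and K562/SSedit-2, with 4 replicates per line. The authors mapped 150-base paired-end reads to GRCh38 with HISAT and deposited whole-number counts per gene from featureCounts, not normalized. Neither the annotation release nor the settings for strand, overlapping genes and multiply mapping reads are given in the sources used here. Of 60671 gene IDs, 60401 matched GENCODE 44.

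In R 4.3.3, genes were kept by filterByExpr of edgeR 4.0.16 (minimum count 10; 18626 kept), scaled by TMM, and all 12 samples were fitted together by line. Lines were compared by the quasi-likelihood test of edgeR, with p-values of all tested genes adjusted together by the Benjamini-Hochberg method; SEs are the log2 fold change over the square root of F. The cutoffs were 2-fold at 10% FDR, which the authors applied with limma voom and which are applied here to edgeR's test. The code was tested on simulated data. Over 18 replicate pairs the chi-square per degree of freedom was 5.36 to 65.1, so none were duplicates. Alternatives used limma 3.58.1, DESeq2 1.42.0 and other filters, scalings and sample sets; tables and plots used Python 3.11.15.

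The members and lists were chosen with earlier results of these data known. Genes named were all 10 members and, in each list or neighbourhood, those past the cutoffs in any comparison (up to 10 by size) and the one of highest mean CPM; others named were chosen after their values were seen. Same-numbered replicates of K562 and K562/SSedit-2 deviated together weakly (r = 0.14 to 0.29 in all 4 pairs, across genes), against a mean of -0.07 for other numbers. With K/VP.5, same-numbered r ran from -0.0027 to 0.27 for K562 and from -0.09 to 0.16 for K562/SSedit-2. The labels do not say what a number marks. The main fit did not use the numbers, and an alternative fit took replicate number as a block. One gene of the beta cluster and some genes that the rule would name are not reported here.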

Additional observations from a re-analysis of the deposited data

Results flagged for a closer look

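In a line of 4 samples, a value was marked when its gap to the nearest other sample passed Dixon's 95% critical value as a share of the whole range, which chance gives in about 1 of 20 groups; 2 of 30 groups of members' levels were marked. HBA1 in K562/SSedit-2 replicate 1 was at 208 CPM, with the other 3 replicates up to 311 CPM. OR51B5 in K562 replicate 1 was at 101 CPM, with the lowest replicate at 66.8 CPM.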

How the results depend on the processing

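Over 22 alternatives, the counts of members past the cutoffs stayed within 1.5 times of 4 in K/VP.5 against K562 and of 3 in K562/SSedit-2 against K562. In K562/SSedit-2 against K/VP.5 leaving out a replicate gave 1 to 3 members in place of 1: HBM passed without K/VP.5 replicate 3 (log2 fold change 1.01), K562/SSedit-2 replicate 1 (1.07) or replicate 4 (1.01), and HBQ1 without K/VP.5 replicate 4 (1.03) or K562/SSedit-2 replicate 4 (1.07). In K562/SSedit-2 against K562, HBD missed 2-fold with no filter (0.99). Beta-side neighbours there were 2 with upper-quartile scaling, BGLT3 being added, and 1 to 2 with a replicate left out (2 without K562 replicate 4, K562/SSedit-2 replicate 3 or replicate 4). Alpha-side neighbours there were 1 with no filter and with DESeq2, ARHGDIG being added, and 0 to 1 with a replicate left out (1 without K562 replicate 4). With replicate number as a block, the members past the cutoffs were 4, 3 and 1 in the 3 comparisons, and no call of a member or pathway gene changed; of neighbours, NPRL3 was lost. Not divided by length, HBG2 was 62.7%, 52.2% and 62.9% of the gamma pair in the parent, resistant and edited lines. HBE1 and its read-through gene summed, an alternative chosen after seeing the data that is not a value of HBE1 alone, gave -0.32 in K/VP.5 against K562, the reverse of HBE1, and 0.52 and 0.84 in K562/SSedit-2 against K562 and K/VP.5. Beta-side neighbours in K/VP.5 against K562 were 21 with no filter and 12 with at least 1 CPM in 4 samples, in place of 16. HBE1 and HBD rest on 16 to 151 counts per library, which limits their precision. The cause of these shifts was not tested.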
